A study of Mus musculus with 40 samples.

Results

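The occupancy of CTCF, of 4 cohesin-related proteins and of 2 histone marks was measured by chromatin immunoprecipitation and sequencing (ChIP-seq) around 7 mouse genes that encode parts of ATP-dependent chromatin remodellers: Smarca4, Smarca2, Smarcb1, Arid1a, Arid1b, Smarca5 and Chd4. A region of a count table was taken for a gene when that gene's start was the nearest one in the authors' own annotation and lay within 200 kb. This rule took 414 of the 863771 regions in 7 tables, of which 171 belonged to Arid1b, 92 to Smarca2, 58 to Arid1a, 52 to Smarca5, 21 to Smarca4, 18 to Chd4 and 2 to Smarcb1. By table, 137 were in that of H3K27ac, 126 in that of H3K4me1, 46 in that of CTCF, 43 in that of WAPL, 23 in that of SMC3, 22 in that of NIPBL and 17 in that of RAD21. One genomic site can appear in several tables, so the 414 regions are not 414 separate sites, and regions of 1 gene are not replicates of one another.

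The cells were small pre-B cells, a stage of B cell development, sorted by flow cytometry from mouse bone marrow. WT cells and cells of Brwd1-/- mice (KO below) were used without culture. In a separate arm, WT cells were held in 126 nM oligomycin A, an inhibitor of the mitochondrial ATP synthase, for 2 h (ATP-depleted cells, labelled ATPneg). The deleted part of Brwd1 is not given in the labels, nor are the age, sex or strain of the mice, or whether the 2 libraries of a group came from separate animals, so the p-values measure only the spread between these libraries. Of 40 samples, 36 were ChIP libraries and 4 were inputs. Every antibody had 2 WT and 2 KO libraries with counts, whereas the ATP-depleted arm had 2 libraries each for NIPBL, RAD21, SMC3 and WAPL, for which peak lists were used and whose depth is unknown here.

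ATP-dependent remodellers use ATP hydrolysis to slide, evict or restructure nucleosomes. Smarca4 (BRG1) and Smarca2 (BRM) are the alternative motor subunits of SWI/SNF (BAF) complexes, Smarcb1 is a core subunit of these complexes, and Arid1a and Arid1b are alternative large subunits of the canonical BAF form. Smarca5 (SNF2H) is the motor of ISWI complexes and is known for its role in CTCF binding and in nucleosome phasing around CTCF sites, and Chd4 is the motor of the NuRD complex. SMC3 and RAD21 are subunits of the cohesin ring, which is held at CTCF sites when it forms chromatin loops, NIPBL loads cohesin and promotes its movement, and WAPL releases it. H3K4me1 is usual at enhancers and on the flanks of active starts, and H3K27ac at active enhancers and promoters.

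Several labels conflict with the deposited files, and this bears on the results for both histone marks and on the NIPBL peak counts. The peak lists of 6 libraries carry the name of another library inside the file. Both lists labelled H3K27ac KO carry H3K4me1 names, and both lists labelled H3K4me1 WT carry H3K27ac KO names. The 4 histone libraries whose titles give the KO have WT in their genotype field. One list labelled NIPBL KO and one labelled NIPBL WT carry each other's genotype. Over 122538 regions shared by both histone tables, the libraries labelled H3K27ac KO correlated with those labelled H3K4me1 WT at r = 0.963 to 0.965 (across regions, log2 scale, which are not independent), with those labelled H3K27ac WT at 0.946 to 0.947 and with those labelled H3K4me1 KO at 0.944 to 0.946. The 2 libraries labelled H3K4me1 WT correlated with those labelled H3K4me1 KO at 0.942 to 0.944 and with those labelled H3K27ac WT at 0.953 to 0.957. For these marks a difference of genotype and an exchange of antibody between libraries cannot be told apart, every library of an arm is touched, and the values below are given for the libraries as labelled.

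Reads in regions ranged from 3784506 to 30496715 per library. Depth moved with genotype in some tables: the SMC3 KO libraries held 4010016 and 4242112 reads against 17667209 and 15416715 in WT, and NIPBL and RAD21 were also shallower in KO. Replicates differed beyond counting error in several tables: chi-square per degree of freedom between the 2 libraries was 25.7 for CTCF in WT, 24.8 for RAD21 in KO, 20.2 for SMC3 in WT, 7.21 for WAPL in WT, 6.19 for RAD21 in WT and 3.74 for NIPBL in WT, but 1.06 to 1.12 for both histone marks. Across regions the libraries of the first 3 correlated at r = 0.655, 0.831 and 0.924. Levels are CPM, read counts relative to a library size that was scaled by the trimmed mean of M-values (TMM). Of the marker genes of the B lineage, 10 of 10 had an H3K4me1-labelled region at their start, as did 4 of 10 T cell, 3 of 10 myeloid and 1 of 9 erythroid and megakaryocyte genes. The levels in these regions did not set the B lineage apart. In the same order of lists, median WT CPM per kb was 7.29, 7.64, 8.18 and 27.9. For H3K27ac-labelled start regions it was 3.28, 4.28, 2.41 and 14.95, over 7, 4, 3 and 2 genes.

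The starts of 4 members, for which the RefSeq table of build GRCm38.p6 holds 1 entry each, are rich in CpG dinucleotides. Arid1b, also with 1 entry, is not printed, and Arid1a and Chd4 have 2 entries each. Each line gives the 250 bases before the start, on the gene's strand, with GC boxes (GGGCGG on either strand) in capitals. Smarca4 (chr9:21615919-21616168, plus strand), Smarca5 (chr8:80739460-80739709, minus) and Smarcb1 (chr10:75921615-75921864, minus) are shown because reads fell at their starts in the H3K4me1-labelled table. Smarca2 (chr19:26604910-26605159, plus) is shown because no table held a region within 1 kb of its start.
Smarca4: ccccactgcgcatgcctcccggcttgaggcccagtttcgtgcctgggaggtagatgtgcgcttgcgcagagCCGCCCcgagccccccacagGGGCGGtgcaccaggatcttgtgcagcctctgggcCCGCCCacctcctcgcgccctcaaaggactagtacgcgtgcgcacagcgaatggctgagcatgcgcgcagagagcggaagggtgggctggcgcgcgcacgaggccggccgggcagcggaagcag
Smarca5: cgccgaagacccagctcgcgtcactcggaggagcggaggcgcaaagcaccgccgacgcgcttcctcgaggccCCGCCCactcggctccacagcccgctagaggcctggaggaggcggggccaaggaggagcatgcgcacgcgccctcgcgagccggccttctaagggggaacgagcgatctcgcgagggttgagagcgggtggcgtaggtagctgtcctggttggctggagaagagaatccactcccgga
Smarcb1: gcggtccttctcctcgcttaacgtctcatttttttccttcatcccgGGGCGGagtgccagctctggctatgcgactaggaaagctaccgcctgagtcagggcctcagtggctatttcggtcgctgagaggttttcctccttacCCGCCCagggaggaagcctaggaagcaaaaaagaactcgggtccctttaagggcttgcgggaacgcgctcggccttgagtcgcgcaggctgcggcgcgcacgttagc
Smarca2: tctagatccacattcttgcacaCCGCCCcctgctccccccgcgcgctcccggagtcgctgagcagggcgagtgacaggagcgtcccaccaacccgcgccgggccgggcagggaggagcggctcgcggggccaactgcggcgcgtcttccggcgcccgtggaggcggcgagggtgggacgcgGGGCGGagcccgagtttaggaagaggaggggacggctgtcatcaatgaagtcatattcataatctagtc
The window held 25 CpG for Smarca4, 29 for Smarca5, 21 for Smarcb1 and 28 for Smarca2 (37 for Arid1b), against a median of 6 over 32851 promoters in the table. There were 3 GC boxes before Smarca4, 1 before Smarca5, 2 before Smarcb1 and 2 before Smarca2, and 32.7% of all promoters held at least 1. These coordinates are of another build than the count tables, whose regions are in mm9, and the windows were not placed on them.

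KO was compared with WT in each table by edgeR's quasi-likelihood test over all regions, and a region was called at a Benjamini-Hochberg adjusted p under 0.05. Fold changes below are KO minus WT on the log2 scale with their SE. SMC3 was the table in which the largest share of the remodeller regions was called: 11 of 22 tested, 9 higher and 2 lower in KO, against 40.2% of all SMC3 regions (22.1% higher and 18.1% lower). For WAPL 8 were higher and 2 lower of 43 tested, below the 40.7% called over all regions (13.1% higher and 27.6% lower). For the libraries labelled H3K4me1, 22 were higher and 21 lower of 126 tested, against 16.4% of all regions (6.44% higher and 9.98% lower). For those labelled H3K27ac, 8 were higher and 18 lower of 134 tested, against 16.5% (5.9% higher and 10.6% lower). NIPBL and RAD21 each gave 1 higher and 0 lower, of 22 and 16 tested, where 1.63% and 23.4% of all regions were called. CTCF gave 0 of 41 tested, against 0.0396% of all regions, with 2 regions at an unadjusted p under 0.05 and 0 calls by DESeq2. Every tested RAD21 region of these genes had a fold change above 0 (16 of 16), whereas 47.5% of all RAD21 regions did. Of all 17 RAD21 regions, 16 had a peak in at least 1 KO list and 3 in at least 1 WT list. A gain was thus favoured by the choice of regions.

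**Figure D1:**
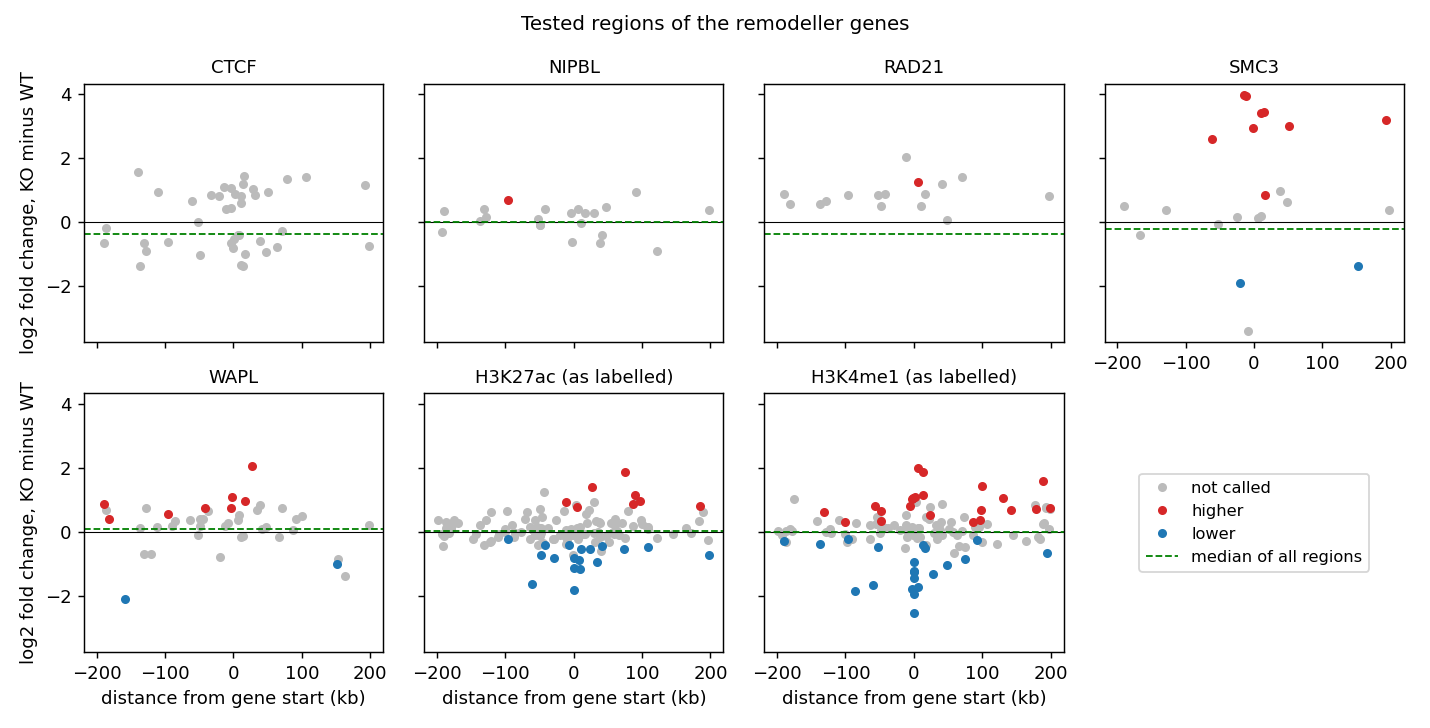
Log2 fold change (KO minus WT) of each tested region of the 7 genes against its distance from the gene start in kb, 1 panel per antibody. Red points were called higher, blue points lower and grey points not called, and the dashed green line is the median of all regions in that table. The red SMC3 points reach 3.95, whereas no CTCF point was called.

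The choice of scaling moved the centre of these tables. The median log2 fold change of all regions was -0.22 for SMC3 with TMM and 0.18 when libraries were scaled on the 25% of regions with the lowest counts. Under that scaling it went from -0.39 to 0.43 for RAD21, from 0.07 to 0.55 for WAPL, from -0.37 to 0.04 for CTCF, from 0.00 to 0.16 for NIPBL and from 0.02 to -0.17 for the H3K27ac-labelled table. The split of member calls into higher and lower then became 13 and 1 for SMC3, 22 and 1 for WAPL and 5 and 32 for H3K27ac, when 37.4%, 59.4% and 24.4% of all regions of those tables were called.

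SMC3 rose in the KO at Smarca4, Smarca5, Chd4, Arid1a and Arid1b, and its strongest gains lay at CTCF sites. All 5 SMC3 regions of these genes that overlap a CTCF peak found in both WT lists were called higher. This is near the background for such places: 96.4% of 12216 tested SMC3 regions at WT CTCF peaks were higher in KO. Each of the 5 entered the table through a KO peak, with 0 of 5 in either WT list and 5 of 5 in at least 1 KO list, so that a gain was favoured by the choice of regions. Over all SMC3 regions at WT CTCF peaks, 91.9% had no SMC3 peak in either WT list. At Smarca4, the SWI/SNF motor, 2 sites inside the gene rose. The region 14.4 kb into Smarca4 (chr9:21435010-21435430) had 12.9 and 12.7 CPM in the KO libraries and 1.37 and 1.00 in WT, a log2 fold change of 3.42 ± 0.27 (edgeR adjusted p = 0.0005864). The region at 10.5 kb (chr9:21431083-21431278) had 9.06 and 9.27 CPM in KO against 1.18 and 0.563 in WT (3.39 ± 0.40, edgeR adjusted p = 0.001337). In both regions the KO and WT libraries were far apart.

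Smarca5, the ISWI motor, gained SMC3 on both sides. The region 13.8 kb upstream (chr8:83277140-83277560) had 16.0 and 11.99 CPM in KO and 0.783 and 1.00 in WT, the largest change among the members (3.95 ± 0.30, edgeR adjusted p = 0.0005725). A second region, 51.0 kb past the start and beyond the gene's end (chr8:83211988-83212315), rose by 2.99 ± 0.32 and lies at a CTCF peak of both KO lists and of WT 1 alone. Another Smarca5 region, 8.7 kb upstream, was split within WT, with 74.7 CPM in WT 1 and 3.50 in WT 2 against 2.62 and 4.75 in KO, and was not called (edgeR adjusted p = 0.1213; named after its values were seen).

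Upstream of Chd4, the NuRD motor, SMC3 rose by a like amount. The region 11.4 kb before its start (chr6:125034523-125034814) had 12.6 and 14.0 CPM in KO and 1.11 and 0.625 in WT (3.93 ± 0.34, edgeR adjusted p = 0.0006351). It was the single SMC3 region of Chd4, and the groups were far apart.

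Arid1a had 3 regions higher of 5 tested. The one 60.7 kb upstream (chr4:133370255-133370450), at a CTCF peak, had 6.91 and 7.01 CPM in KO against 1.18 and 1.13 in WT (2.59 ± 0.27, edgeR adjusted p = 0.0009891). The one 0.7 kb upstream of the start (chr4:133310237-133310544) had 10.3 and 8.14 CPM against 1.501 and 0.875 (2.94 ± 0.36, edgeR adjusted p = 0.001515). Its input was near the bound used for dense input, at 103.9 and 100.6 reads per kb in KO and WT. It is the single SMC3 region of the 7 genes within 1 kb of a start, a class in which 76.6% of 1601 tested regions were higher. The last, 16.5 kb into the gene, rose by 0.83 ± 0.23 where input was dense, at 350 and 320.8 input reads per kb in KO and WT. Its values were 11.7 and 9.73 CPM in KO and 5.55 and 6.50 in WT.

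Arid1b had gains and losses. The region 192.5 kb into the gene (chr17:5187596-5187810) rose by 3.18 ± 0.36, with 8.11 and 5.43 CPM in KO against 0.653 and 0.813 in WT, at a CTCF peak of both KO lists and of WT 2 alone. At 151.7 kb into the gene (chr17:5146768-5147772) SMC3 fell, from 11.8 and 7.63 CPM in WT to 2.86 and 4.52 in KO (-1.38 ± 0.36, edgeR adjusted p = 0.02723). Smarca2, the alternative SWI/SNF motor, had 3 SMC3 regions, of which 2 were tested and 0 called higher. Its sites at a CTCF peak of both WT lists held no SMC3 peak in WT or KO, so a gain there could not be called. The region 19.6 kb upstream of Smarca2 (chr19:26659906-26660023) fell from 9.33 and 4.63 CPM in WT to 2.38 and 1.36 in KO (-1.90 ± 0.50, edgeR adjusted p = 0.02985). Neither loss was called when either KO library was left out, whereas the gains at the 5 CTCF sites and 0.7 kb before Arid1a were called in 10 of 10 alternative analyses. These alternatives refitted the same regions. Of the 9 SMC3 regions called higher, 8 had an SMC3 peak in at least 1 KO list and 1 in at least 1 WT list. Gains away from the 5 CTCF sites were thus also favoured by the choice of regions. No other SMC3 region of these genes had a peak in a KO list, so both losses entered through WT peaks. The losses were therefore favoured in the same way, and the WT libraries were deeper. With all SMC3 libraries thinned to the depth of the shallowest, chosen after the depths were seen, 12 regions were called, 9 higher and 3 lower, and these include the 11 above.

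**Figure D2:**
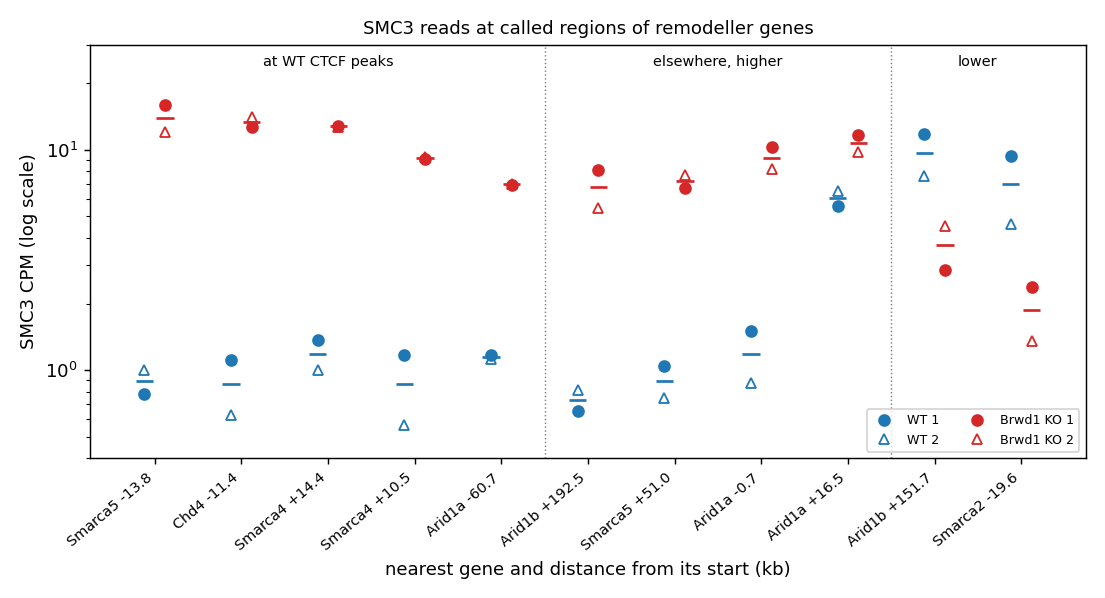
SMC3 CPM (log axis) in each library at the 11 called regions, named by nearest gene and distance from its start in kb. Blue marks are WT and red marks KO, filled circles library 1, open triangles library 2 and short lines the group means. At the 5 regions with a WT CTCF peak the KO libraries lie between 6.91 and 16.0 CPM and the WT libraries between 0.563 and 1.37.

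CTCF itself was measured at 8 regions of these genes with a peak in both WT lists: 2 in Smarca4, 2 in Smarca2, 2 near Smarca5 and 1 each upstream of Arid1a and Chd4. All 8 also had a peak in both KO lists, as did 95.0% of all 16436 such regions, and none was called changed, against 0.0183% of 16434 tested regions of this kind. In 6 of the 8 both KO libraries were above both WT libraries, as in 82.6% of all such regions and 31.1% of all CTCF regions, and WT 2 was the lowest library at 8 of 8, as at 95.8% of all such regions. Inside Smarca4 (chr9:21430911-21431438) CTCF stood at 24.4 and 24.8 CPM in KO, 24.03 in WT 1 and 8.82 in WT 2 (0.60 ± 0.73, edgeR adjusted p = 0.5096). Upstream of Smarca5 (chr8:83276867-83277785) the values were 23.2 and 27.1 in KO and 18.5 and 5.69 in WT (1.08 ± 0.75, edgeR adjusted p = 0.3229). Upstream of Chd4 (chr6:125034388-125035040) they were 31.4 and 27.9 in KO and 27.95 and 17.0 in WT (0.41 ± 0.70, edgeR adjusted p = 0.6394). Inside Smarca2, 106.2 kb from the start (chr19:26785813-26786203), CTCF was 10.1 and 10.4 CPM in KO and 5.49 and 2.49 in WT (1.42 ± 0.73, edgeR adjusted p = 0.3111). With WT 1 left out, 36 of 44 tested CTCF regions of these genes were called, 22 higher and 14 lower, when 84.1% of all CTCF regions were. With WT 2 left out 6 of 44 were called, all lower, when 22.3% of all CTCF regions were, so the count rests on which WT library is used, as it does over the whole table. The CTCF region at the start of Arid1b (chr17:4994745-4995739) held 10.5 and 12.9 CPM in KO and 35.3 and 6.90 in WT and was not called (edgeR adjusted p = 0.3922).

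The peak lists show where cohesin subunits were found at these 8 CTCF sites in each condition, the ATP-depleted cells included. No SMC3 peak was listed at any of the 8 in either WT library. In KO, 4 had a peak in both libraries and 5 in at least 1, and in ATP-depleted cells 5 had a peak in both and 8 in at least 1. Over all 16436 such CTCF regions, 3.44% had an SMC3 peak in both WT lists, 50.8% in both KO lists and 91.8% in both ATP-depleted lists, so the order of the conditions at the remodeller genes is that of the whole table. By the authors' peak caller, the site upstream of Chd4 had SMC3 peak scores of 11.3 and 13.5 in KO and 75.6 and 59.8 in ATP-depleted cells, where they were the highest of the 8. The site upstream of Smarca5 had 12.2 and 11.9 in KO and 43.8 and 43.9 in ATP-depleted cells. In Smarca2, 77.6 kb from the start, SMC3 peaks were listed in ATP-depleted cells with scores of 5.09 and 8.42 and in no KO list. Scores of lists of different depth are not on 1 scale and were not tested.

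RAD21, the other cohesin subunit measured, had a peak at 0 of the 8 sites in WT, at 2 in KO 1 and 0 in KO 2, and at 3 in both ATP-depleted lists and 6 in at least 1. Over all such sites the shares in both lists were 2.68% in WT, 4.35% in KO and 40.3% in ATP-depleted cells, and those in at least 1 list were 5.4%, 51.9% and 94.4%. NIPBL and WAPL peaks were listed at 0 of the 8 in every library of the 3 conditions. Such peaks were rare over all 16436 sites too, where 3.46% (WT), 2.07% (KO) and 3.26% (ATP-depleted) had NIPBL and 4.16%, 4.62% and 3.04% had WAPL in both lists.

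**Figure D3:**
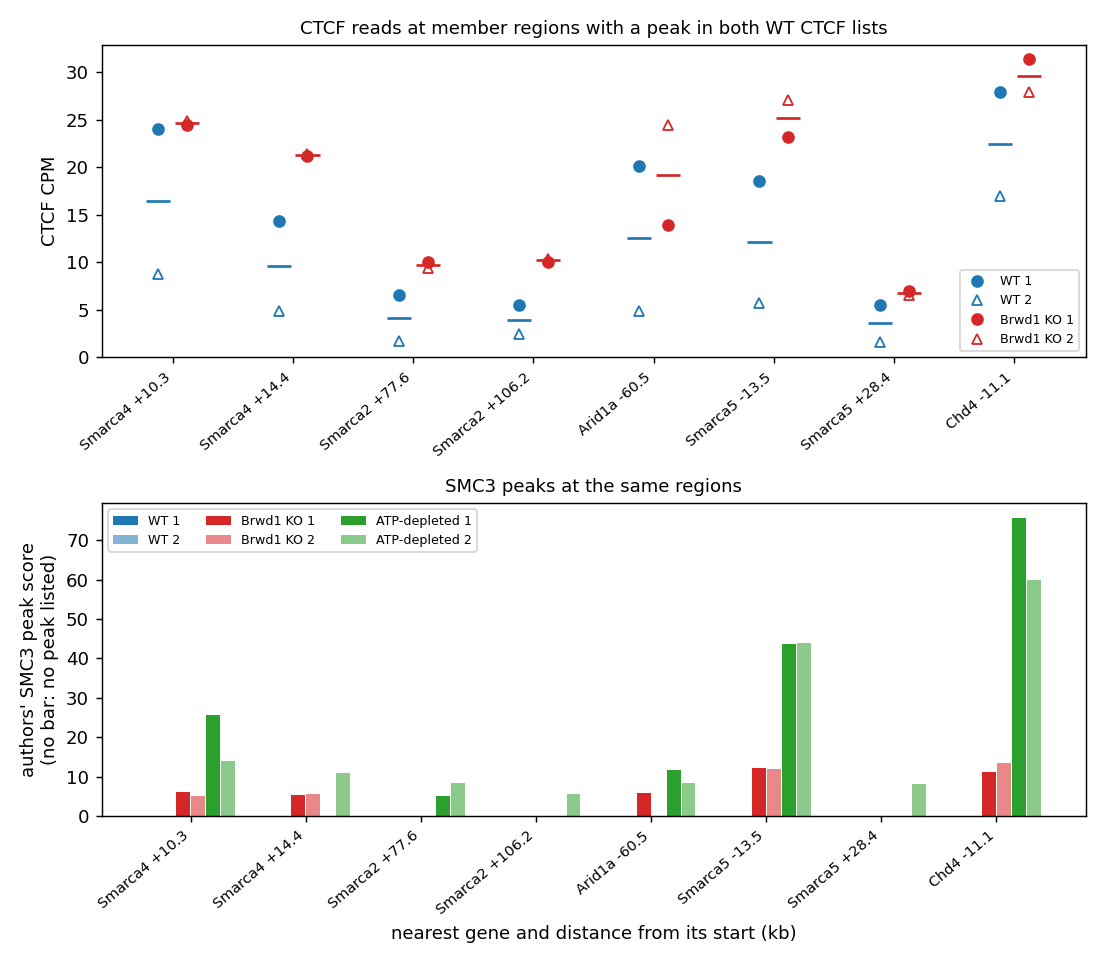
Top, CTCF CPM in each library at the 8 regions with a peak in both WT CTCF lists, with WT in blue, KO in red and short lines for group means. Bottom, the authors' SMC3 peak score at the same regions for WT, KO and ATP-depleted libraries 1 and 2, where no bar means no listed peak: no WT bar is present, KO bars stand at 5 regions and ATP-depleted bars at 8.

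Over all SMC3 regions of the 7 genes, 3 of 23 had a peak in both WT lists, 4 in both KO lists and 7 in both ATP-depleted lists, against 31.9%, 11.2% and 20.2% of all SMC3 regions. All 7 regions with peaks in both ATP-depleted lists were among the 9 called higher in the KO, in a table where 85.5% of 16850 tested regions with such peaks were called higher. For WAPL, 15 of 43 regions had a peak in both WT lists, 25 in both KO lists and 0 in both ATP-depleted lists, against 41.6%, 35.4% and 1.64% of all WAPL regions. For NIPBL the counts were 9, 0 and 3 of 22, against 33.1%, 1.81% and 12.9%. Every NIPBL region of these genes entered the table through a peak labelled WT, with 22 of 22 in at least 1 WT list and 0 of 22 in any KO list. Over all NIPBL regions, 94.7% had no peak in either KO list. The list labelled NIPBL WT 1, with a peak at 11 of the 22, carries the name of a KO library inside, so these counts hold as labelled. The NIPBL KO libraries were also shallower, with 3803369 and 3784506 reads in regions against 17681215 and 16916106 in WT. For RAD21 the counts were 1, 3 and 2 of 17, against 33.3%, 7.82% and 8.02%. Input was dense (above 100 reads per kb) at all 9 WT and all 3 ATP-depleted NIPBL regions counted here. It was dense at 12 of the 15 WT and 21 of the 25 KO WAPL regions. For SMC3 it was dense at 3 in WT, 0 in KO and 1 in ATP-depleted cells, and for RAD21 at 0, 3 and 0. Dense input marked 19 of all 22 NIPBL, 33 of 43 WAPL, 9 of 23 SMC3 and 14 of 17 RAD21 regions of these genes. The regions had been merged from WT and KO peaks, so ATP-depleted peaks elsewhere are not in these counts: only 44.9% and 47.4% of the ATP-depleted SMC3 peaks lay in a region of the table.

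RAD21 reads gave 1 call, 6.4 kb into Arid1a (chr4:133302980-133303122), with 5.77 and 6.26 CPM in KO against 2.38 and 2.72 in WT (1.23 ± 0.28, edgeR adjusted p = 0.04692). Input was dense there, at 286.7 reads per kb in KO and 377.6 in WT, as at 14 of the 17 RAD21 regions. The call was kept in 4 of 10 alternatives. Upstream of Chd4, where SMC3 rose, RAD21 stood at 8.72 CPM in KO 1, 1.11 in KO 2 and 1.04 and 1.38 in WT (2.02 ± 0.98, edgeR adjusted p = 0.1527). Upstream of Smarca5 it was 3.09 in KO 1, 0.417 in KO 2 and 0.710 and 0.446 in WT, too few reads to be tested. The KO libraries disagreed at both sites, and without KO 1 or without KO 2 the number of RAD21 regions called was 12 or 10 of 17 tested, when 42.2% or 55.5% of all RAD21 regions were called.

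NIPBL reads gave 1 call, 96.0 kb upstream of Smarca2 (chr19:26583559-26583682), with 42.0 and 41.6 CPM in KO against 25.2 and 27.3 in WT (0.67 ± 0.12, edgeR adjusted p = 0.0329). This region had 1815 and 1573 input reads per kb in KO and WT, and 0 NIPBL regions of these genes were called when any 1 of the 4 libraries was left out (3 to 5 at an unadjusted p under 0.05) or on input-subtracted counts. The same place was also higher for WAPL. Whether the dense input had a part in these differences was not tested.

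For WAPL, the cohesin release factor, dense input (above 100 reads in each kb) marked 7 of the 8 higher regions and 33 of all 43 regions of these genes. The highest change was 27.5 kb into Smarca2 (chr19:26707122-26707230), with 2.29 and 2.45 CPM in KO against 0.581 and 0.544 in WT (2.06 ± 0.25, edgeR adjusted p = 0.004518) and 394.5 and 495.4 input reads per kb. Upstream of Smarca2 (chr19:26583571-26583955) WAPL was 31.6 and 29.4 CPM in KO against 20.7 and 21.3 in WT (0.54 ± 0.10, edgeR adjusted p = 0.01166). Upstream of Arid1b, 189.9 kb away (chr17:4804831-4805161), it was 17.5 and 18.2 against 9.83 and 9.65 (0.87 ± 0.12, edgeR adjusted p = 0.005975). Both lower regions had sparse input. Inside Arid1b, at 151.1 kb (chr17:5146216-5147755), WAPL fell from 8.71 and 5.44 CPM in WT to 3.22 and 3.75 in KO (-1.02 ± 0.28, edgeR adjusted p = 0.03598). That region overlaps the one in which SMC3 fell. The other, 158.6 kb upstream of Smarca2, fell by 2.11 ± 0.46 from 0.871 and 0.544 CPM to 0.155 and 0.168. When either KO library was left out 0 WAPL regions of these genes were called, with 7 and 10 at an unadjusted p under 0.05.

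In the table labelled H3K4me1, reads were lower in the libraries labelled KO at the starts of 6 of 6 members with a region there, by 0.94 to 2.53 on the log2 scale. Of all start-site regions in this table, 59.3% of 8320 tested were lower and 8.97% higher. Among the marker starts, 10 of 10 tested of the B lineage were lower (median -1.07), as were 1 of 4 of T cells (-0.33), 1 of 3 of myeloid cells (0.31) and 0 of 1 of erythroid cells and megakaryocytes (-0.30). The part of the cell mixture in the members' values was not tested. At Arid1a (chr4:133307753-133310294) the level was 5.35 and 4.94 CPM in KO against 30.7 and 28.9 in WT (-2.53 ± 0.10, edgeR adjusted p = 1.119e-122). Smarca5 (chr8:83262342-83264144) had 3.52 and 4.42 CPM against 15.5 and 15.1 (-1.94 ± 0.12). Arid1b (chr17:4993559-4997158) had 16.1 and 17.3 against 44.4 and 46.2 (-1.44 ± 0.07). The groups did not overlap at any of these 3 genes. The share of all start-site regions without overlap was not counted, and with 59.3% of them lower this does not set the 3 apart.

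The other 3 starts followed with smaller losses. Smarca4 (chr9:21420682-21423515) had 7.47 and 7.96 CPM in KO against 19.1 and 18.3 in WT (-1.27 ± 0.10). Smarcb1 (chr10:75383689-75384394), the core SWI/SNF subunit, had 1.16 and 1.22 against 2.63 and 2.92 (-1.23 ± 0.25), its single region in this table. Chd4 (chr6:125046053-125047663) had 4.80 and 4.42 against 9.27 and 8.497 (-0.94 ± 0.13). The Smarca4, Smarca5 and Smarcb1 starts are those whose upstream sequences are printed above.

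Beside some of these starts, regions were called higher. All 22 H3K4me1-labelled regions of these genes called higher had a peak in at least 1 list labelled KO. Only 8 of the 22 had one in at least 1 list labelled WT, so gains were favoured by the choice of regions. At 1.7 kb into Chd4 (chr6:125047908-125049388) the H3K4me1-labelled level was 7.90 and 7.90 CPM in KO against 3.58 and 3.85 in WT (1.08 ± 0.14, edgeR adjusted p = 7.045e-13). It was higher also 1.2 kb and 2.3 kb upstream of Arid1a (1.04 ± 0.18 and 1.03 ± 0.27) and 13.1 kb into Arid1b (1.88 ± 0.21). Within Smarca4 a region of 7070 bp at 5.8 kb (chr9:21426419-21433488), which spans a CTCF site, fell from 84.3 and 86.0 CPM in WT to 24.7 and 27.3 in KO (-1.71 ± 0.06, edgeR adjusted p = 7.987e-158). A region 59.4 kb upstream of Arid1a (chr4:133368883-133371127), also at a CTCF peak, fell from 22.5 and 23.3 to 7.41 and 7.03 CPM (-1.67 ± 0.09). Over the whole table, reads at regions that cover a gene start were 3.53 and 3.51 CPM per kb in the libraries labelled KO against 7.49 and 7.59 in those labelled WT, so the members' starts moved with the table.

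In the table labelled H3K27ac, 3 of the 4 tested start regions were lower in the libraries labelled KO, in a table in which 23.1% of 4948 start-site regions were lower and 8.41% higher. Smarca5 (chr8:83262668-83263394) had 0.585 and 0.444 CPM in KO against 1.79 and 1.91 in WT (-1.83 ± 0.30, edgeR adjusted p = 1.255e-07). Chd4 (chr6:125046332-125047163) had 0.752 and 0.533 against 1.64 and 1.21 (-1.13 ± 0.30, edgeR adjusted p = 0.002681). Arid1a (chr4:133307969-133309656) had 1.80 and 1.51 against 3.25 and 2.57 (-0.81 ± 0.20, edgeR adjusted p = 0.001015). Levels were low at Smarca5 and Chd4, where DESeq2 gave no adjusted p. The call at Smarca5 was kept in 9 of 9 alternatives that gave an adjusted p. That at Chd4 was lost without KO 2 (edgeR adjusted p = 0.07325) and without WT 1 (0.09398), and that at Arid1a without WT 1 (edgeR adjusted p = 0.06139) and with DESeq2 (adjusted p = 0.1194). Arid1b (chr17:4994442-4996896) was not called, at 10.6 and 11.1 against 10.2 and 12.5 CPM (-0.07 ± 0.09). Smarca4 had too few reads to be tested, and Smarcb1 had 1 region, 9.3 kb from its start, that was not called.

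**Figure D4:**
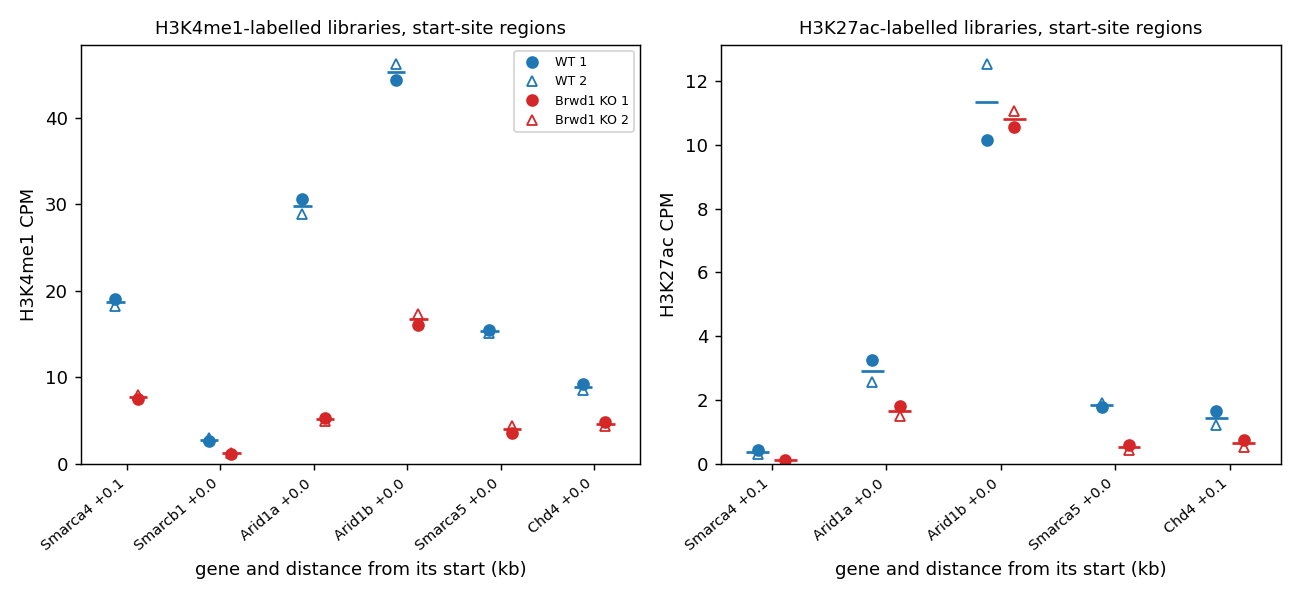
CPM in each library at the start-site regions of the members, in the H3K4me1-labelled table (left) and the H3K27ac-labelled table (right), with WT in blue, KO in red and short lines for group means. All 6 members on the left are lower in KO. On the right Arid1b overlaps between groups, and Smarca4 was not tested.

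Away from the starts, H3K27ac-labelled reads moved in both directions within 1 gene. In Smarca2 the region at 75.4 kb (chr19:26755073-26755186) rose from 0.840 and 1.101 CPM in WT to 3.30 and 3.82 in KO (1.86 ± 0.21, edgeR adjusted p = 1.158e-13), and the one 48.4 kb upstream (chr19:26630979-26631273) fell from 18.0 and 16.7 to 11.2 and 9.94 (-0.72 ± 0.08, edgeR adjusted p = 7.725e-14). In the H3K4me1-labelled table the same 2 places moved the other way, by -0.85 ± 0.22 and 0.33 ± 0.09. In Arid1b the regions at 89.9 kb and 87.4 kb rose by 1.15 ± 0.17 and 0.87 ± 0.16, and those at 10.5 kb and 198.1 kb fell by 0.55 ± 0.06 and 0.73 ± 0.08. The histone tables lack inputs, but CTCF regions at these 2 lower places had dense input. It was 1433 and 1508 reads per kb (KO and WT) at 10.5 kb, and 1125 and 1141 at 198.1 kb. The CTCF region 48.5 kb upstream of Smarca2 had 548.2 and 451.8. The part of input in these losses was not tested. In Smarca4 the region at 9.5 kb (chr9:21430085-21431133), at a CTCF peak, fell from 3.05 and 3.27 to 1.30 and 1.51 CPM (-1.17 ± 0.20, edgeR adjusted p = 8.061e-07). With library totals in place of TMM the H3K27ac-labelled calls split into 14 higher and 14 lower.

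Summed over all regions of a gene and divided by the length covered, SMC3 in KO was 43.3 and 48.0 CPM per kb at Chd4, 35.5 and 35.6 at Smarca4 and 28.3 and 28.2 at Smarca5, and in WT 3.80 and 2.14, 4.13 and 2.53, and 69.6 and 11.9. The Smarca5 sum in WT 1 rests on the single region 8.7 kb upstream. The Chd4 sum holds 1 region and the Smarca4 sum 2, all of them CTCF-site regions described above. These sums therefore restate gains that the choice of regions favoured. Arid1a had 35.07 and 30.96 CPM per kb in KO against 14.73 and 12.45 in WT. Arid1b had 49.21 and 49.25 against 41.45 and 39.7. Smarca2 was lower in KO, at 11.89 and 9.287 against 40.01 and 15.95, and none of its SMC3 regions had a peak in a KO list. The H3K4me1-labelled sum for Smarca4 was 3.69 and 4.01 CPM per kb in KO against 9.46 and 9.72 in WT, while Smarca2 had 50.9 and 50.4 against 49.2 and 48.2. The covered length ranged from 0.706 kb at Smarcb1 to 35.4 kb at Arid1b in this table. By the correlation of summed levels over 28 libraries, the gene most like Smarca2 among 10240 with regions in all tables was Mlip (r = 0.976), that most like Chd4 was Grap2 (0.962), that most like Arid1b was Rftn1 (0.933), that most like Arid1a was Vps54 (0.906) and that most like Smarca5 was Gpr37l1 (0.717). These points share antibodies and depths, and Smarca4 and Smarcb1 lack regions in some tables.

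Other genes of the same and of related remodeller complexes gave the background of the family. Of 63 genes (other SWI/SNF, ISWI, CHD and NuRD, INO80 and SWR1 genes), 48 had a tested H3K4me1-labelled region at the start, of which 41 were lower and 3 higher in the libraries labelled KO. Their median log2 fold change was -1.74 against -0.90 for all start regions of the table. By group, 14 of 15 other SWI/SNF starts, 9 of 10 other ISWI starts, 12 of 14 CHD and NuRD starts and 6 of 9 INO80 and SWR1 starts were lower. Over all start-site regions of the table, 59.3% were lower and 8.97% higher. In the H3K27ac-labelled libraries 14 of 26 were lower and 2 higher, against 23.1% and 8.41% of all start-site regions. Their median was -0.81 against -0.06. All 3 tested SMC3 start regions of these genes were higher, as were 76.6% of all start regions (median 2.84 against 3.05 for all start regions).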

How the data were processed

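ChIP-seq libraries of small pre-B cells were grouped by the titles in the labels, and every group had 2 libraries per antibody. Reads were handled with BWA, Picard, MACS2, bedtools, featureCounts and edgeR on build mm9, per the submitters' processing notes, which give no versions or roles. The authors deposited raw read counts per region, with regions merged from WT and KO peaks. They deposited input-subtracted counts, a score that need not be whole, used for 1 alternative. The authors also deposited normalized signal values per region, in which each column is the subtracted counts times 1 constant, and from these tables the nearest genes and coordinates were taken. The authors' peak lists hold a score per peak, and libraries with and without ATP depletion were compared through them by an overlap of at least 1 bp. Of the input columns, 2 matched no sample and were not used.

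KO was compared with WT, 2 libraries against 2, by the quasi-likelihood test of edgeR (version 4.0.16, R version 4.3.3), with TMM scaling, the default filter on low counts and Benjamini-Hochberg adjustment over all tested regions of a table. The SE was the log2 fold change over the square root of the F statistic. DESeq2 1.42.0, other scalings, no filter, input-subtracted counts, a replicate block and leaving out each library were alternatives. The fits were tested on simulated data with the same spread in every library, which cannot show how they behave where replicates differed widely. A start-site region was the one nearest to a gene start within 1 kb. Input was called dense above 100 reads per kb, averaged over KO and WT inputs, which the histone tables lack. A consensus CTCF peak was a library 1 peak that overlapped a library 2 peak. Gene likeness was Pearson's r of log2(summed CPM + 1), centred per library. Within a single library no error beyond counting error was estimated, and depth differed between tables. Regions are named for each table as follows: those at gene starts, up to 3 called higher and 3 called lower with groups apart, the densest, those at consensus WT CTCF peaks. Others are named for the called SMC3 regions and for flanks of starts and were chosen after their values were seen. The 7 genes, the gene lists and the markers were chosen with earlier results of these data known. Same-numbered KO and WT libraries deviated together by r = -0.214 for CTCF and -0.064 to 0.025 elsewhere, and no label ties them, so they were not paired. Positions within exons, introns or UTRs were not analysed here.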

Additional observations from a re-analysis of the deposited data

How the results depend on the processing

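Counts of called regions at the 7 genes changed with these settings. DESeq2 gave 7 for RAD21 (1 with edgeR), 4 for WAPL (10), 12 for H3K27ac (26) and 17 for H3K4me1 (43, where 22 higher and 21 lower became 7 and 10). Scaling on the regions with the lowest counts gave 2 for NIPBL (1), 0 for RAD21, 23 for WAPL and 44 for H3K4me1 (20 higher, 24 lower). Library totals in place of TMM gave 4 for NIPBL (1 higher, 3 lower). Input-subtracted counts gave 0 for NIPBL, 0 for RAD21 and 36 for H3K4me1 (17 higher, 19 lower), and no filter on low counts gave 0 for RAD21. The fit with the replicate block gave 2 for NIPBL, 0 for RAD21, 45 for H3K4me1 (22 higher, 23 lower), 0 for CTCF, 10 for SMC3, 8 for WAPL and 27 for H3K27ac. Since CTCF libraries with the same number deviated in opposite directions, a crossed block was tried after the data were seen and also gave 0. At 0 calls for RAD21 there were 15 regions at an unadjusted p under 0.05 with the low-count scaling, 8 without the filter, 8 on subtracted counts and 2 with the block. For NIPBL on subtracted counts there were 3. The causes were not tested.

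Leaving out 1 library gave 0 to 36 calls for CTCF, 0 to 0 for NIPBL, 0 to 12 for RAD21, 8 to 14 for SMC3, 0 to 20 for WAPL, 19 to 20 for H3K27ac and 31 to 39 for H3K4me1. RAD21 gave 0 without WT 1 and 0 without WT 2 (0 also at an unadjusted p under 0.05), and H3K4me1 gave 31 without KO 1 (14 higher, 17 lower) and 31 without WT 1 (13 higher, 18 lower). For SMC3 the 10 alternatives gave 8 to 14 calls. No named region that was called turned its direction. Where an ATP-depleted peak in either list was enough, NIPBL had 7 regions in place of 3, RAD21 7 in place of 2, SMC3 11 in place of 7 and WAPL 2 in place of 0. With scores of at least 2 times the lowest in each list, NIPBL had 1 and RAD21 1. Single ATP-depleted lists gave 4 to 6 for NIPBL, 3 to 6 for RAD21, 8 to 10 for SMC3 and 0 to 2 for WAPL. The depth of ATP-depleted libraries is unknown, and 2 libraries per group limit every test.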
